A study of Mus musculus with 6 samples.

Results

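The retinal pigment epithelium (RPE) of the mouse posterior eye was read from 1825 cell barcodes, 2.76% of the 66018 that passed the filters and part of 66434 in all. A barcode was counted as RPE when at least 3% of its unique molecular identifiers (UMIs, each marking 1 captured transcript) came from Ttr, Rpe65, Rgr and Rdh5 together, with at least 1 UMI of Rpe65 and at most 5 of Dcn, a fibroblast transcript. Barcodes with fewer than 500 UMIs, fewer than 300 genes or over 20% mitochondrial UMIs were left out. Members came from 6 libraries, with 253, 701 and 548 after tropicamide, against 84, 63 and 176 after saline. The RPE was chosen by these 4 genes, so their high levels against other cells describe the rule and carry no test.

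The series compared the back of the eye under 2 eye drop treatments, in a study of how ciliary muscle contraction bears on the onset of myopia. In the tropicamide group (relaxed ciliary muscle), 12 mice received tropicamide, a muscarinic receptor antagonist, as 6 drops at intervals of 10 min, and tissue was taken 1 h after the last. In the saline group (contracted ciliary muscle), 12 mice received saline at the same interval, with no number of drops and no waiting time given in the labels. Only right eyes were used, and 4 eyes of different mice were pooled into each library, which gives 3 pools per group. The tissue was sclera, choroid and retina, without lens, cornea, iris or ciliary body. No strain, sex or age is given. The female-specific Xist RNA had 0 UMIs in the RPE barcodes of all 6 pools, while the Y-linked Ddx3y was found in each of them. The extraction text in the labels describes another tissue, so how the posterior eye was dissociated is not known.

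The RPE is a single layer of pigmented cells between the photoreceptors and the choroid. It turns all-trans retinoids back into the 11-cis form that visual pigments need, takes up shed outer segments, moves ions, lactate and water out of the retina and secretes carrier proteins. Its melanosomes carry melanin made by tyrosinase (Tyr) and the tyrosinase-related proteins Tyrp1 and Dct. In eye growth research the RPE is studied as a relay between retina and choroid, and muscarinic receptors are the class of protein that tropicamide blocks.

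Several pigment genes stood lower in the tropicamide pools, while Tyr was close to even. Promoters of pigment genes are shown because these genes were summed to choose some of the barcodes described below. Their joint high level in those barcodes therefore follows from the choice. MITF, the regulator of pigment cells, is known to bind CATGTG elements in such promoters, and OTX factors are known to bind TAATCC. The windows run from 250 bases before to 50 bases after the annotated start and come from RefSeq on build GRCm38.p6, 5′ to 3′ on the gene's strand. Capitals mark CATGTG or TAATCC on either strand (CACATG and GGATTA when read on the gene strand). Rpe65, an RPE gene with no pigment role, is printed beside them.
Dct (dopachrome tautomerase), chr14:118052197-118052496, minus strand: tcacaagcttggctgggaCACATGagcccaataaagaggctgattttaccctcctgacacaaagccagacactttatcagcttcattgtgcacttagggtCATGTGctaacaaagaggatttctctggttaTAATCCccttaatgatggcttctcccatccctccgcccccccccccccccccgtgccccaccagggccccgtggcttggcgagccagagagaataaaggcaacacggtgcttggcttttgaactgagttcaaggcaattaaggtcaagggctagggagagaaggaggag
Tyrp1, chr4:80833963-80834262, plus strand: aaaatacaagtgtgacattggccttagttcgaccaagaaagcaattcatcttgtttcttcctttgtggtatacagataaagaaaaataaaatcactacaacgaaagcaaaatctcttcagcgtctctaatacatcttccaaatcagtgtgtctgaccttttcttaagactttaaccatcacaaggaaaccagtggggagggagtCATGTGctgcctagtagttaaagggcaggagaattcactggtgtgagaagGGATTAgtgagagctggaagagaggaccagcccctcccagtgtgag
Tyr, chr7:87493463-87493762, minus strand: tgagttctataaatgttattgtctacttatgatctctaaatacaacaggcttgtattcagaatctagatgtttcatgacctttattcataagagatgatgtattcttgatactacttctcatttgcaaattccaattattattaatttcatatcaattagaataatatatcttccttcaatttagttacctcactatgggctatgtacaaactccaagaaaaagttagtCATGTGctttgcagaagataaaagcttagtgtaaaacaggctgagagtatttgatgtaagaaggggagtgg
Slc24a5 (melanosomal cation exchanger), chr2:125067877-125068176, plus strand: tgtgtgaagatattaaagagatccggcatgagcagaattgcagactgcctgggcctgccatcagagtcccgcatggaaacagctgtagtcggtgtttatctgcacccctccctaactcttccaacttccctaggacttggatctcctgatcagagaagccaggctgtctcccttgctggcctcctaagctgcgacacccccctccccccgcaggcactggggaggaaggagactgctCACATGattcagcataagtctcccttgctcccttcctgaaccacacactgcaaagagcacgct
Rpe65, chr3:159598931-159599230, plus strand: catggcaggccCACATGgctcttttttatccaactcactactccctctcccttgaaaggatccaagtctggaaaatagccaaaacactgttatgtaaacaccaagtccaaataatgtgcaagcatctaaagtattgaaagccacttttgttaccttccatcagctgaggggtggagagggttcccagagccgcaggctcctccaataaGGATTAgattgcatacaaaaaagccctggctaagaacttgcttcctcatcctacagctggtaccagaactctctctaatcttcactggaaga

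CATGTG was present in the promoters of 5 of the 11 pigment genes that had an entry among 16 listed, namely Slc24a5, Tyrp1, Oca2, Tyr and Dct. Of 14 visual cycle promoters 4 held it, among them the Rpe65 promoter printed above, and of all 32851 promoters of the same length 14.2%. In Tyr it began 21 bases before the start, in Tyrp1 46 bases before, and Dct had 1 copy on each strand, 150 and 232 bases before. TAATCC was found in Dct, Tyrp1 and Rpe65 among the printed windows, in 2 of the 11 pigment and 4 of the 14 visual cycle promoters, and in 7.06% of all promoters. CATGTG and TAATCC do not overlap in any printed window. A match describes letters in this window and shows no binding.

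Of 7 defining genes of the RPE, Ttr, Rpe65, Rgr and Rdh5 chose the barcodes, so their levels cannot check the label. The 3 that can are Slc16a8 and Lrat, which were plain in every pool, and Best1, which was not. Levels are in CPM (counts scaled to a common library total over the tested genes, with TMM factors), not divided by length. Rpe65, the retinoid isomerase, stood at 5689, 5349 and 5391 CPM after tropicamide, against 4893, 4266 and 4999 CPM after saline. The groups did not overlap, which is given without a test because Rpe65 chose the members. Slc16a8, the lactate transporter MCT3 of the RPE's basal side, was not used by the rule. It had 3006, 2898 and 2781 CPM after tropicamide, against 2722, 2656 and 3026 CPM after saline, with groups that overlap. Lrat, which esterifies retinol, had 1007, 953 and 895 CPM after tropicamide, against 1043, 834 and 953 CPM after saline, again with overlap. With each barcode thinned to 500 UMIs, Slc16a8 was found in 72.1% of RPE barcodes and in 0.0333% of 3000 rod barcodes, and Lrat in 36.0% of RPE barcodes and 0.1% of rod barcodes.

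The exception was Best1, the calcium-activated chloride channel bestrophin-1 of the RPE's basal membrane, which was almost undetected. Its UMIs in RPE barcodes numbered 2, 2 and 1 after tropicamide, against 0, 0 and 0 after saline. Over all 1825 members 5 barcodes held 1, and all barcodes of the series together held 282. For the saline pools, 0 of 84, 63 and 176 barcodes allows a share with a Best1 UMI of up to 3.57%, 4.76% and 1.71%, counting error only. Other genes known from the RPE were also at or near 0: Cftr had no UMI, and Tfec had 1 UMI in 1 pool. Serpinf1, which encodes the secreted factor PEDF, reached at most 23.0 CPM, where barcodes with over 5 Dcn UMIs held 982 to 1135 CPM. The other markers of ion and fluid transport were plain, among them Kcnj13, the apical potassium channel Kir7.1, at 823 to 1277 CPM, the calcium-permeable channel Trpm3 at 823 to 1068 CPM and the carbonic anhydrase Car14 at 1256 to 1556 CPM.

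Tropicamide acts on muscarinic receptors, and their transcripts were scarce in RPE barcodes. Chrm4 and Chrm5 had 0 UMIs in all 6 pools. Chrm1 had 3.29, 0.574 and 1.25 CPM after tropicamide, against 0, 0 and 2.48 CPM after saline, Chrm2 was seen in 1 tropicamide pool, and Chrm3 was at 1.65, 2.87 and 6.85 CPM after tropicamide, against 0, 5.88 and 0 CPM after saline. A single UMI is worth between 0.574 and 5.88 CPM in these pools, and 3 UMIs, the limit that a count of 0 allows, up to 17.6 CPM. None of the 5 passed the filter on low counts, so no difference was testable at this depth. Of 26 acetylcholine, adrenergic, dopamine, adenosine and VIP receptor genes and related enzymes, only Drd4, Adora2b and Vipr2 were high enough to test. The adenosine receptor gene Adora2b had 87.2, 84.4 and 74.8 CPM after tropicamide, against 90.9, 70.5 and 79.4 CPM after saline, with overlap, and 0.604 to 1.3 CPM in rod barcodes.

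**Figure D1:**
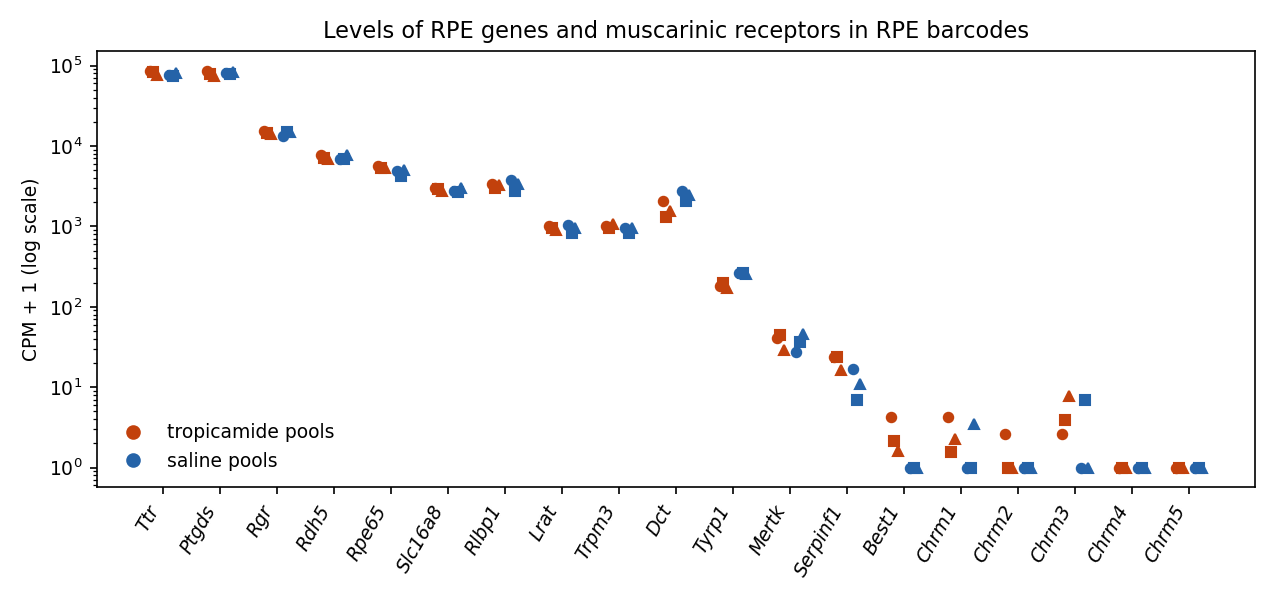
Levels of RPE genes and muscarinic receptor genes in RPE barcodes, as CPM + 1 on a log axis, 1 point per pool (circle, square and triangle for pools 1, 2 and 3), with tropicamide pools left of saline pools. The rule's genes and Slc16a8, Rlbp1, Lrat and Trpm3 lie at 823 CPM or more in every pool, while Best1 and Chrm1 to Chrm5 lie at 6.85 CPM or less.

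The most abundant transcripts of the RPE coded for secreted carriers, metal binding proteins and visual cycle enzymes. The 20 genes with the highest mean level took between 30.3% and 32.2% of the RPE's UMIs in each pool. Ptgds, the prostaglandin D synthase that also carries retinoids, led with 74259 to 84946 CPM over the 6 pools, beside Ttr, the thyroxine and retinol carrier, at 74688 to 86722 CPM. Cst3 (cystatin C) followed at 29650.5 to 34497 CPM, Trf (transferrin) at 16079 to 22032 CPM, Mt1 (metallothionein) at 12685 to 15882 CPM and Apoe at 10206 to 13227 CPM. In each of these 6 the groups overlapped. Ptgds averaged 78918 CPM after tropicamide, against 80432 CPM after saline. In rod barcodes Ptgds reached 160.7 CPM at most.

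Members differed among themselves beyond counting noise in a few transcripts. After thinning to 500 UMIs, the variance over the mean of a gene (1 for pure sampling) was taken in each pool over the 474 genes with at least 0.1 UMI per barcode. The median over pools was 7.15 for the nuclear RNA Malat1, 5.97 for Ttr, 5.67 for Ptgds, 3.41 for Trf and 2.31 for Dct. Malat1 was lower where the mitochondrial share was higher. In all, 203 members had under 0.5% mitochondrial UMIs, 10.7% of the tropicamide members and 13.3% of the saline members. In those 203, Malat1 averaged 8847 CPM over the pools and Cadm2 1897 CPM, against 2565 and 585 CPM in the 317 members with 5% or more. Rpe65 varied less, with 5283 CPM in the low and 4320 CPM in the high mitochondrial barcodes. Saline pool 2 had the highest Malat1, at 10599 CPM over all its members.

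Within the RPE, 108 barcodes were rich in pigment transcripts, and some other genes differed there too. They were taken after the data were seen as the members with at least 1% of UMIs in 16 pigment genes, so the pigment genes' own levels there describe the choice. Pmel, which forms the melanosome's fibrils, averaged 3009 CPM over the pools in the pigment-rich members and 106 CPM in the other 1717. Dct averaged 7960 CPM in the pigment-rich members and 1366 CPM in the others. Among genes not used to choose them, Cox8b, a subunit of cytochrome c oxidase, was at 2898 to 3928 CPM in the pigment-rich members of the 6 pools and 669 to 1041 CPM in the others. The channel gene Trpm1 was at 380 to 679.5 CPM in the pigment-rich members and 65.1 to 102 CPM in the others, and the collagen processing gene Pcolce at 483 to 805 CPM in the pigment-rich members and 204 to 371 CPM in the others. The ranges describe these 3 genes and are no test. These 3 were named after the values of 707 genes were seen. How many of the 707 had separate ranges is not given. Apart from genes listed by name, a gene entered the 707 in 1 of 2 ways. It had at least 50 UMIs in the pigment-rich members or a mean of at least 300 CPM in the others. Trpm1 and Pcolce averaged 85.6 and 274 CPM in the others. They met these limits only through the pigment-rich members, where they are high, so their values follow in part from that filter. Saline pool 1 had 9 pigment-rich members and saline pool 2 had 5, so the values of these pools rest on few barcodes.

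Retinoid genes differed among themselves in these barcodes. Rpe65 was at 1094 to 2898 CPM in the pigment-rich members and 4206 to 5627 CPM in the others, and Rgr, the RPE opsin, at 3435 to 12676 CPM in the pigment-rich members and 13805 to 15255 CPM in the others. Both genes belong to the rule. Rlbp1, the 11-cis retinal carrier, was at 1755 to 2511 CPM in the pigment-rich members and 2676 to 3936 CPM in the others. Lrat overlapped, at 479 to 1138 CPM in the pigment-rich members and 819.6 to 972 CPM in the others. Slc16a8 averaged 2758 CPM in the pigment-rich members and 2706 CPM in the others, Rdh5 6741 and 6874 CPM, and Ttr 81484 and 75475 CPM, with ranges that overlap. Serpine3, a serpin gene, had 93.0 CPM in the pigment-rich members and 321 CPM in the others. Of melanocyte markers outside the pigment list, Kit had 2 UMIs in the pigment-rich members and 15 in the others, and Ednrb 3 and 8, too few to compare. Sox10, a factor of neural crest derived melanocytes, averaged 27.9 CPM in the pigment-rich members (8 UMIs) and 49.0 CPM in the others. Trpm1, Igfbp5 and Gsta3 were read beside these and went the other way from Sox10. Trpm1 averaged 543 CPM in the pigment-rich members and 85.6 CPM in the others, Igfbp5 878 and 196 CPM, and Gsta3 188 and 12.6 CPM. Whether some of the 108 are melanocytes or hold their RNA was not tested. Their median UMIs were 833 to 2426 per pool, against 1386 to 2173.5 in the others. Their median mitochondrial share was 4.90%, 4.21% and 3.99% after tropicamide, against 2.16%, 2.08% and 4.06% after saline. In the other members it was 2.13%, 1.81% and 2.33% after tropicamide, against 2.28%, 2.14% and 2.34% after saline, so 4 of 6 pools had a higher share in the pigment-rich members. Over all members Dct averaged 851 CPM below 0.5% mitochondrial UMIs and 2691 CPM at 5% or more, and Gpnmb 73.9 and 404 CPM. The part of the mitochondrial share in these values was not tested. Pigment-rich members made up 7.91%, 2.43% and 7.12% of the RPE barcodes of the tropicamide pools (76 of 1502 in all) and 10.7%, 7.94% and 10.2% of those of the saline pools (32 of 323). Every tropicamide pool was lower, with tropicamide pool 1 almost level with saline pool 2, and no test was made.

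**Figure D2:**
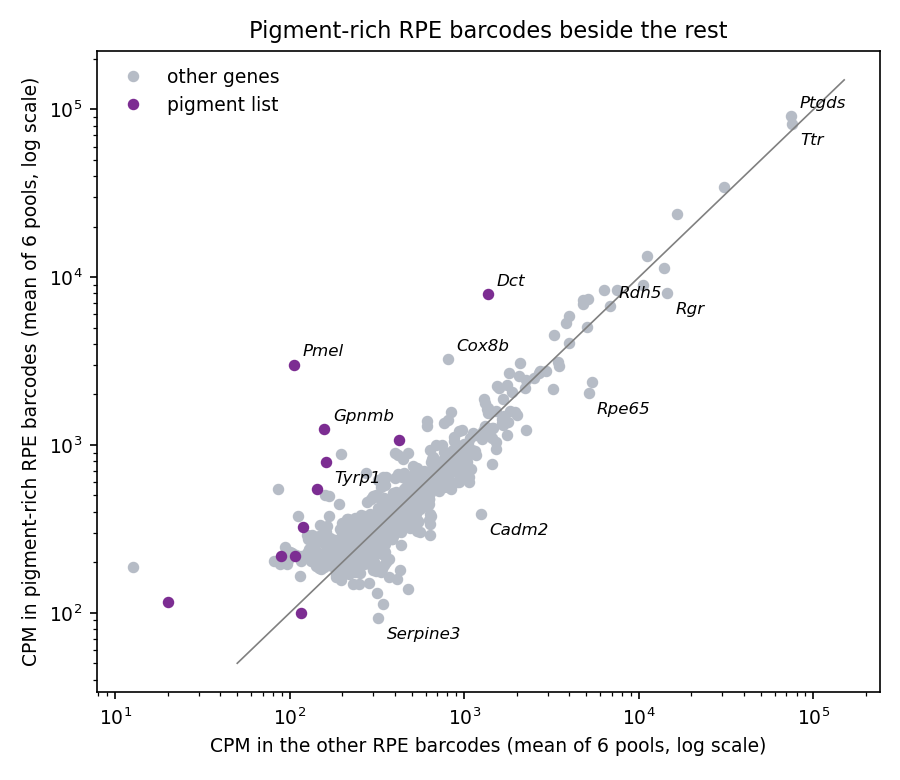
Mean level over the 6 pools of genes in the 108 pigment-rich RPE barcodes (vertical axis) against the other 1717 (horizontal axis), both in CPM on log axes, with equality as a grey line and the pigment list in purple. Pmel, Dct and Gpnmb lie far above the line with Cox8b, which is not in the list, and Rpe65, Cadm2 and Serpine3 lie below it.

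The share of RPE barcodes was higher in every tropicamide pool than in any saline pool. It was 2.68% (exact 95% interval 2.37 to 3.03), 5.21% (4.84 to 5.60) and 4.36% (4.01 to 4.73) of kept barcodes in the tropicamide pools. In the saline pools it was 0.892% (0.712 to 1.10), 0.605% (0.465 to 0.773) and 1.64% (1.41 to 1.90), where the intervals cover counting error only. The means were 4.08% ± 1.29 after tropicamide, against 1.05% ± 0.534 after saline (SD, n = 3 pools each; two-sided exact permutation p = 0.1, the smallest that 3 against 3 allows). Without rod barcodes in the denominator they were 5.97% ± 2.0 after tropicamide, against 1.55% ± 0.734 after saline (SD, n = 3 each; exact permutation p = 0.1). How many RPE cells were freed from the tissue and how many each eye held cannot be told apart in these counts. Barcodes rich in Dcn, called Dcn barcodes here, numbered 991, 1162 and 619 after tropicamide, against 448, 410 and 825 after saline.

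**Figure D3:**
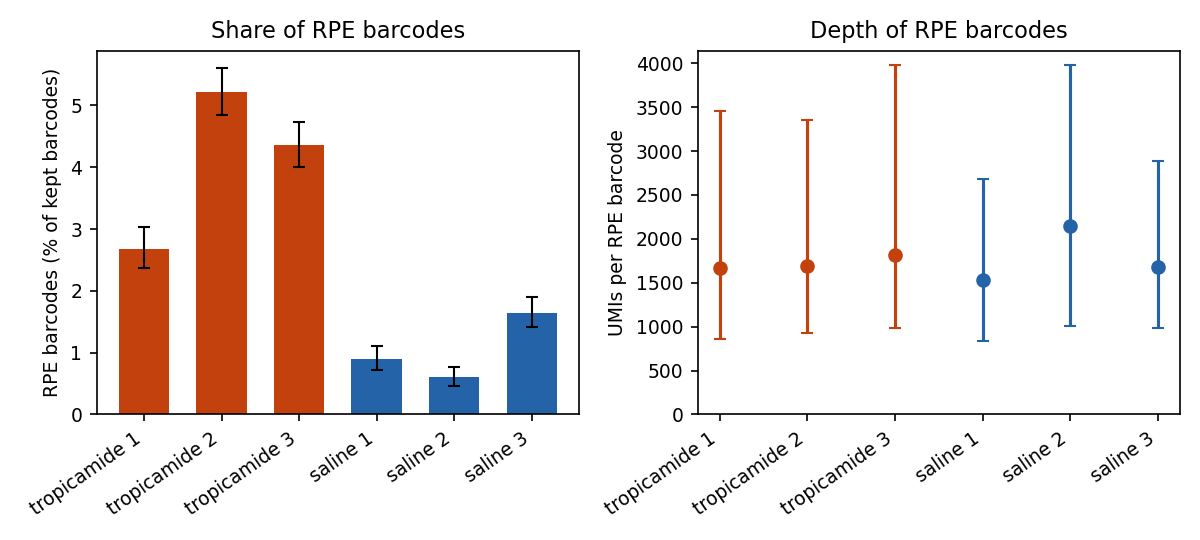
Left, RPE barcodes as a percentage of kept barcodes in each pool, with exact 95% binomial intervals. Right, median UMIs per RPE barcode with the 25th to 75th percentiles; the 3 tropicamide shares of 2.68% to 5.21% lie above the saline shares of 0.605% to 1.64%, while the depths overlap.

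The medians of 4 quality measures of the members differed by less than the spread between pools, while barcodes rich in rod transcripts were more frequent after tropicamide. Median UMIs per RPE barcode were 1671, 1690 and 1819.5 after tropicamide, against 1528.5, 2141 and 1683 after saline (exact permutation p = 0.9). Genes found at 500 UMIs had medians of 311, 311 and 316 after tropicamide, against 320.5, 305 and 313 after saline (exact permutation p = 1). Mitochondrial shares averaged 2.19% ± 0.323 after tropicamide, against 2.27% ± 0.167 after saline (SD, n = 3 each; exact permutation p = 0.9). The rod transcripts in RPE barcodes, 18 genes summed per barcode, had median shares of 0.762%, 0.626% and 0.971% after tropicamide, against 0.850%, 0.534% and 0.658% after saline (exact permutation p = 0.5). The adjusted p over these 4 measures was 1 for each. Summed over members, the tropicamide pools held 652066, 1812875 and 1669091 RPE UMIs and the saline pools 199426, 177143 and 430431, so saline values rest on fewer transcripts. At least 5% rod UMIs were found in 2.37%, 2.71% and 2.37% of members after tropicamide, against 1.19%, 0% and 0.568% after saline (38 of 1502 and 2 of 323 in all). These shares did not overlap and were not tested.

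Between tropicamide and saline no gene of the RPE passed the test across all genes. Of 5833 genes tested with edgeR's quasi-likelihood test on summed counts, 0 (0%) had a Benjamini-Hochberg adjusted p under 0.05, and the DESeq2 test also called 0. Without saline pool 2, the smallest and the one with the most Malat1, edgeR called 11 genes, and without each of the other pools 0 or 1. At an unadjusted p under 0.05 there were 244 (4.18%) in edgeR and 182 in DESeq2. All 3 tropicamide pools lay above all 3 saline pools in 323 genes (5.54%) and below them in 322 (5.52%), together 11.1%. The 95% interval of the fold change lay within 2-fold in either direction for 4055 genes, 69.5%. For genes with a mean of at least 100 CPM that held for 1443 of 1454, 99.2%, and at 1000 CPM or more for all 98.

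The melanosome and pigment genes leaned lower in the tropicamide pools as a group, without a single call. Of the 16 listed, 13 were high enough to test and 12 of those had a log2 fold change below 0, where 50.9% of all genes did. The median of the 13 was -0.37, against -0.00497 over all genes tested, and 6 had an unadjusted p under 0.05. In 5 of the 13 every tropicamide pool was below every saline pool, where 5.52% of all genes were. The other 3, Rab38, Mreg and Mlph, had too few UMIs. The members pass the filter on low counts through either group, and they were chosen with these data known, so these counts describe them and are no test.

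Gpnmb, a glycoprotein of melanosomes and lysosomes, had the smallest p of all genes. It had 206, 189 and 172 CPM after tropicamide, against 417, 235 and 377 CPM after saline. The groups did not overlap, and saline pool 2 was nearest to the tropicamide pools. The log2 fold change was -0.90 (SE 0.16), with an edgeR p of 1.41e-05 and an adjusted p of 0.0822. Dct, the tautomerase of the eumelanin pathway, had 2056, 1318 and 1563 CPM after tropicamide, against 2775, 2092 and 2482 CPM after saline. Here too the groups did not overlap, with tropicamide pool 1 close below saline pool 2, and the log2 fold change was -0.58 (SE 0.14, edgeR adjusted p 0.347).

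Further members of the melanosome list gave the same picture at weaker p values. Tyrp1 had 183, 199 and 169 CPM after tropicamide, against 262, 259 and 256 CPM after saline, with no overlap and a log2 fold change of -0.49 (SE 0.15). Slc24a5 had 504, 409.7 and 407 CPM after tropicamide, against 578, 541 and 568 CPM after saline, also without overlap, at -0.37 (SE 0.13). Rab27a, the small GTPase that moves melanosomes, had 100.4, 94.1 and 102 CPM after tropicamide, against 176, 129 and 127 CPM after saline, at -0.51 (SE 0.18). Pmel overlapped, with 412, 155 and 285 CPM after tropicamide, against 609.6, 299.6 and 402 CPM after saline and a log2 fold change of -0.68 (SE 0.25). The edgeR adjusted p of these 4 was 1. Tyr, the enzyme that starts melanin synthesis, was close to even at 145, 145 and 137 CPM after tropicamide, against 134, 112 and 174 CPM after saline (log2 fold change -0.05, 95% interval -0.42 to 0.31). Mitf was the 1 member above 0, at 0.64 (95% interval -0.36 to 1.65; -0.00 without tropicamide pool 3), from 21.4, 25.8 and 61.1 CPM after tropicamide, against 10.7, 17.6 and 34.7 CPM after saline.

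The 108 pigment-rich barcodes were chosen by the sum of these same genes, so leaving them out lowers pigment levels by construction and does not show where the difference lies. Without them the median log2 fold change of the pigment genes was -0.21 over 12 tested, 8 of them below 0, and Pmel was at 0.05. Dct was at -0.22 and Gpnmb at -0.54, both with an edgeR adjusted p of 1. In the typical barcode the difference was small: the median share of UMIs in the 16 pigment genes was 0.285%, 0.242% and 0.236% after tropicamide, against 0.283%, 0.303% and 0.289% after saline, which overlap. At the 90th percentile it was 0.939%, 0.629% and 0.763% after tropicamide, against 1.03%, 0.825% and 0.994% after saline, which overlap too. A share of barcodes with at least 1 Dct UMI showed no such order, at 80.2%, 76.6% and 74.5% after tropicamide, against 73.8%, 87.3% and 76.7% after saline. That fewer pigment-rich cells were caught and that each made less pigment RNA cannot be told apart by the summed counts.

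**Figure D4:**
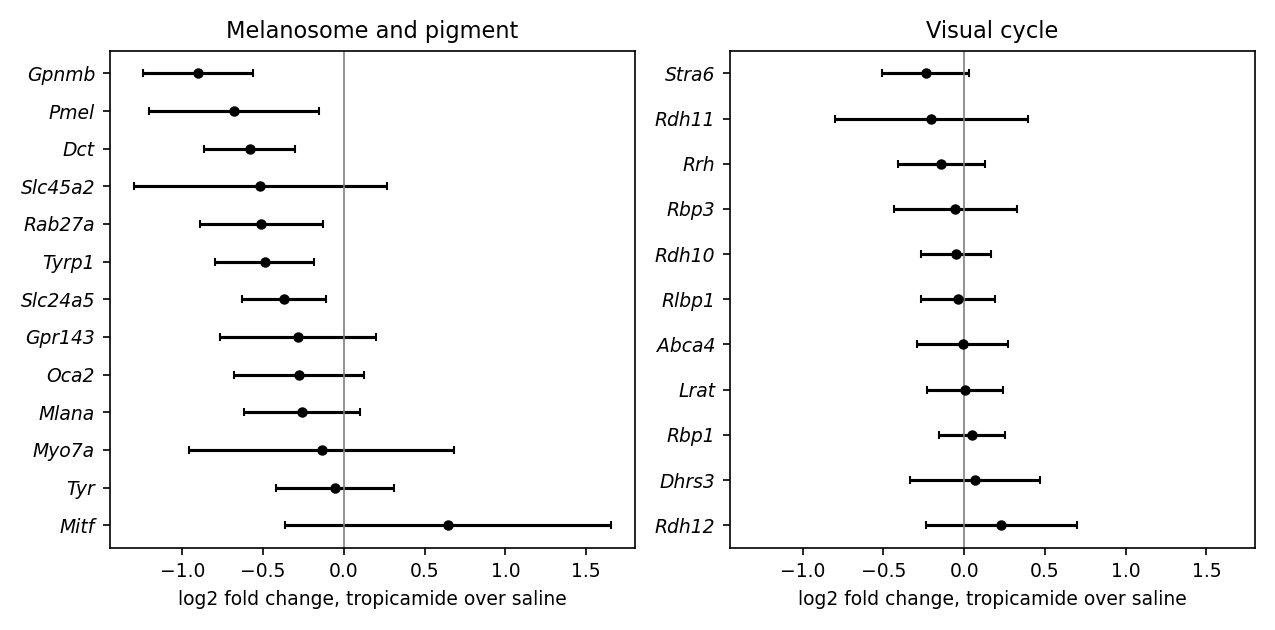
Log2 fold change (tropicamide over saline) in RPE barcodes with 95% intervals for the tested members of the pigment list (left) and of the visual cycle list without the rule's genes (right). In the pigment list 12 of 13 points lie below 0, and the visual cycle points lie between -0.24 and 0.23 with every interval across 0.

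Visual cycle genes, by contrast in values though not by a test between the lists, centred on 0. Of the 11 tested members outside the rule, 4 were above 0 and 7 below, with a median of -0.04 and none at an unadjusted p under 0.05. Rlbp1, the 11-cis retinal carrier CRALBP, had 3385, 3014 and 3277 CPM after tropicamide, against 3732, 2767 and 3415 CPM after saline, with overlap (log2 fold change -0.04, 95% interval -0.27 to 0.19). Stra6, the retinol uptake receptor, was the lowest at -0.24 (95% interval -0.51 to 0.03), from 660.1, 651 and 558 CPM after tropicamide, against 898, 693 and 638 CPM after saline. Lrat was at 0.01 (95% interval -0.23 to 0.24). For these genes the intervals exclude a doubling and a fall to 50%.

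Transport, lysosome and secretion genes were near 0 as groups. Of 23 tested channels, pumps and solute carriers 13 were above 0 and 10 below, with a median of 0.04. Trpm1 was the 1 whose pools did not overlap, with 120.2, 110.2 and 115 CPM after tropicamide, against 182, 135 and 149 CPM after saline (log2 fold change -0.43, SE 0.17, edgeR adjusted p 1). Among 17 genes of outer segment uptake and lysosomes 12 were below 0, with a median of -0.08. In 2 of these 17 every tropicamide pool was above every saline pool, and in 2 below. Over all genes tested 11.1% did not overlap, beside Trpm1 alone among the 23 above. The lysosomal protease gene Ctsb had 509, 465 and 451 CPM after tropicamide, against 631, 593 and 588 CPM after saline, without overlap, at -0.35 (SE 0.12, edgeR adjusted p 1). Mertk, the receptor that drives outer segment uptake, had only 39.5, 43 and 28 CPM after tropicamide, against 26.7, 35.3 and 44.7 CPM after saline. Of 11 tested growth factor and secreted genes 5 were above 0 and 6 below. Vegfa, the factor that keeps the choriocapillaris, had 127, 128 and 132 CPM after tropicamide, against 155, 94 and 129 CPM after saline (log2 fold change 0.02, 95% interval -0.36 to 0.40), while Enpp2, which makes lysophosphatidic acid, was at 1676, 1635 and 1673 CPM after tropicamide, against 1556, 1239.7 and 1435 CPM after saline, without overlap (0.23, SE 0.11, edgeR adjusted p 1).

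Besides Gpnmb and Dct, the 10 genes of smallest p held 3 others that were lower in the tropicamide pools. Serpine3 had 147, 216 and 283 CPM after tropicamide, against 257, 464 and 516 CPM after saline, where saline pool 1 overlapped with tropicamide pool 3. Its log2 fold change was -0.94 (SE 0.21, edgeR adjusted p 0.216). Pcolce, the enhancer of procollagen processing, had 299.6, 217 and 283 CPM after tropicamide, against 379.7, 364 and 442 CPM after saline, without overlap (-0.61, SE 0.15, edgeR adjusted p 0.36). Upk3b, an uroplakin gene, was at 28, 55.7 and 34.3 CPM after tropicamide, against 58.8, 118 and 94.3 CPM after saline, without overlap (-1.11, SE 0.29, edgeR adjusted p 0.521). Cox8b, chosen here because it marked the pigment-rich members, had 1059, 743 and 844 CPM after tropicamide, against 1652, 911 and 1243 CPM after saline (-0.54, SE 0.16, edgeR adjusted p 1), with overlap.

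The other 5 were higher in the tropicamide pools. Ddx5, an RNA helicase, had 1045, 952 and 1081 CPM after tropicamide, against 588, 635 and 762 CPM after saline, without overlap, with a log2 fold change of 0.61 with SE 0.12 (adjusted p in edgeR 0.133). Cgrrf1 had 127, 127 and 131 CPM after tropicamide, against 58.8, 82.3 and 81.9 CPM after saline (0.76, SE 0.20, edgeR adjusted p 0.579), and Rwdd4a 39.5, 37.3 and 36.8 CPM after tropicamide, against 5.35, 23.5 and 4.96 CPM after saline (2.0, SE 0.48, edgeR adjusted p 0.36). Nr2e3, a photoreceptor transcription factor, had 143, 174 and 183 CPM after tropicamide, against 85.6, 129 and 94.3 CPM after saline, at 0.75 (SE 0.19, edgeR adjusted p 0.521). It was also higher in rod barcodes, at 0.51 (SE 0.05, edgeR adjusted p 0.000352), and at 0.62 (SE 0.11, edgeR adjusted p 0.277) in Dcn barcodes. The haemoglobin gene Hbb-bs had 21.4, 142 and 61.7 CPM after tropicamide, against 10.7, 5.88 and 0 CPM after saline. These are 359 UMIs in tropicamide and 3 in saline, a ratio of rates of 23.0 (exact interval 7.81 to 112, counting error only; edgeR adjusted p 0.186). Tropicamide pool 2 was highest, and in rod barcodes Hbb-bs also differed, at 3.84 (SE 0.52, edgeR adjusted p 0.00143). In Dcn barcodes it ran the other way, at -3.52 (SE 1.32, edgeR adjusted p 0.397). In RPE barcodes neither Hbb-bs nor Rwdd4a would have passed the filter on low counts through the saline pools alone. Their values describe the tropicamide pools that let them pass and are no test.

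**Figure D5:**
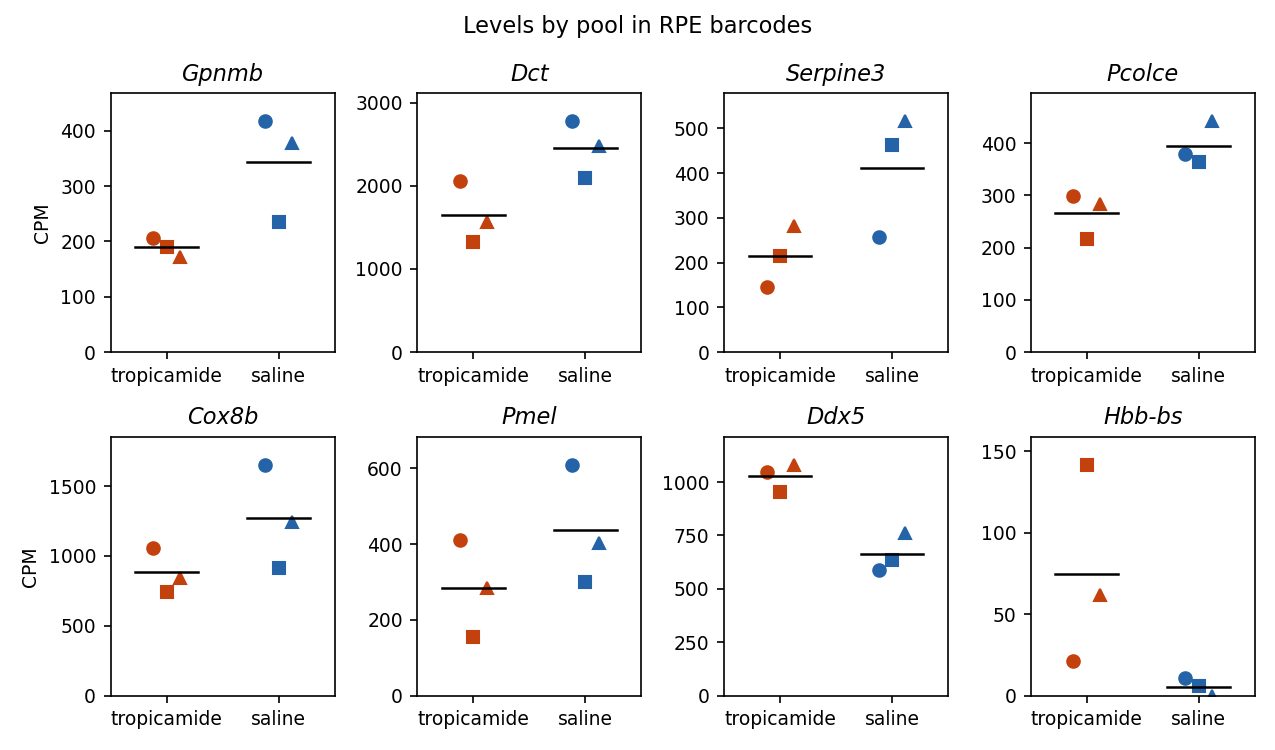
Levels in CPM of 8 genes in RPE barcodes, 1 point per pool (circle, square and triangle for pools 1, 2 and 3) and the group mean as a line, tropicamide left of saline. Gpnmb, Dct and Pcolce lie lower and Ddx5 and Hbb-bs higher in every tropicamide pool than in any saline pool, while Serpine3, Cox8b and Pmel overlap, and the edgeR adjusted p of each is above 0.05.

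Transcripts of other cell types were present in RPE barcodes, and some stood higher in the tropicamide pools. All 7 tested fibroblast markers outside the rule were above 0, with a median log2 fold change of 0.47, where 50.9% of all genes were below 0. In 3 of the 7 every tropicamide pool was above every saline pool, where 5.54% of all genes were. The median was 0.21 without saline pool 2, with 1 of 7 below 0, 0.96 without saline pool 3 and 0.72 without tropicamide pool 3. Their summed level with the rest of 10 markers was 515 to 718 CPM after tropicamide, against 206 to 519 CPM after saline. Col1a2 had 49.4, 75.7 and 49.2 CPM after tropicamide, against 37.4, 5.88 and 29.8 CPM after saline, without overlap, where the Dcn barcodes held 7302 to 9026 CPM. Like Hbb-bs, it would not have passed the filter on low counts through the saline pools alone. The 5 erythrocyte genes summed to 39.5 to 292 CPM after tropicamide, against 2.48 to 32.1 CPM after saline, with Alas2 at 0 in saline. The 18 rod markers summed to 9890.4 to 10818 CPM after tropicamide, against 9409 to 12350.1 CPM after saline. The melanocyte list shares 6 of its 11 genes with the pigment list. Its 7 tested members were all below 0, where 50.9% of all genes were. The list summed to 2210.4 to 3251 CPM after tropicamide, against 3226 to 4502 CPM after saline. Their part in the differences above was not tested.

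Early response genes were low and spread. Of 12 tested, 9 were above 0, with a median log2 fold change of 0.35, where 50.9% of all genes tested were below 0. That direction did not hold: the median was -0.32 at a marker threshold of 5% (8 of 10 below 0), -0.24 with doublets removed (7 of 10 below 0) and -0.19 after thinning, with 2 genes tested. It was 0.063 without tropicamide pool 2 and 0.17 without tropicamide pool 3. Egr1, which is studied as a marker of the eye growth signal, had 77.4, 93.5 and 97.8 CPM after tropicamide, against 149.7, 112 and 99.3 CPM after saline, without overlap (-0.34, 95% interval -0.76 to 0.08). Nfkbia, the inhibitor of NF-kB, belongs to the list of inflammation and chemokine genes and is not among these 12. It had 44.4, 43.6 and 42.4 CPM after tropicamide, against 10.7, 17.6 and 29.8 CPM after saline, without overlap (0.96, SE 0.35, edgeR adjusted p 1). Dusp1, a phosphatase of MAP kinases, had 36.2, 28.7 and 23.7 CPM after tropicamide, against 0, 0 and 19.9 CPM after saline, without overlap (1.44, SE 0.57, edgeR adjusted p 1). In 1 of the 12 every tropicamide pool was above every saline pool and in 1 below, where 11.1% of all genes tested did not overlap. Neither Nfkbia nor Dusp1 would have passed the filter on low counts through the saline pools alone, so their values are no test. In Dcn barcodes Dusp1 stood at 480.3 to 585 CPM, Nfkbia at 502 to 872 CPM and Egr1 at 2172 to 2984 CPM, beside the higher fibroblast transcripts in tropicamide RPE barcodes, whose part was not tested. The 12 tested glucocorticoid-responsive genes had a median of 0.17, the 11 tested clock genes 0.12, the 13 tested amino acid stress and tRNA charging genes -0.25, the 53 cytosolic ribosomal protein genes 0.02 and the 41 nuclear respiratory chain genes -0.00316. None of the 29 lists of functions held a gene that passed.

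Whether the change in RPE barcodes differed from that in other cells of the same pools was tested on per-pool log2 differences. Against rod barcodes 0 of 5833 genes passed in limma (0%), with 430 at an unadjusted p under 0.05, and the smallest adjusted p was 0.0513 for Ermn. Dct came next: its log2 fold change was -0.59 in RPE barcodes and 2.57 in rod barcodes, a difference of -3.16 (SE 0.32, limma adjusted p 0.0541). In rod barcodes Dct stood at 1.09 to 17.1 CPM. Rod barcodes of the tropicamide pools also held more of other RPE transcripts, such as Ptgds with 2.35 on the log2 scale (SE 0.23, edgeR adjusted p 0.000238) and Lrat at 3.05 (SE 0.47, edgeR adjusted p 0.00305), beside the higher share of RPE barcodes in these pools. Against barcodes with over 5 Dcn UMIs 0 of 5833 passed (0%), with 332 at an unadjusted p under 0.05 and a smallest adjusted p in limma of 0.828.

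The threshold of 3% was not crowded. Between 3% and under 4% lay 62 members, with a median of 5 Rpe65 UMIs and 2.77% rod UMIs, and 56 barcodes lay just outside, at 2% to under 3%, with 4 Rpe65 UMIs and 3.98% rod UMIs. The median member had 10.3% of UMIs in the 4 rule genes and 7 Rpe65 UMIs. Of 2038 kept barcodes past 3%, 209 had no Rpe65 UMI and 4 had over 5 Dcn UMIs. Of the members, 194 were scored as possible doublets and stayed in. No barcode sequence was a member in more than 1 library, and 522 sequences were shared between libraries over all barcodes.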

How the data were processed

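Single-cell RNA-seq matrices of 6 libraries were used as deposited: the authors gave UMI counts per gene and barcode, made with Cell Ranger 8.0.1 and STAR on GRCm39, per the submitters' processing notes. Neither chemistry nor annotation release is known from the labels. Labels give replicate numbers but no link between groups, and each library pools 4 eyes, so p-values measure the spread between pools.

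RPE barcodes were chosen by the stated rule, and their counts were summed per library and tested with edgeR 4.0.16 (TMM, filterByExpr, quasi-likelihood, Benjamini-Hochberg under 0.05). DESeq2 1.42.0 was an alternative. Differences from rod barcodes (at least 5% of UMIs in 18 rod genes and a further marker requirement not reported here, without Rpe65 or Dcn) and Dcn barcodes (over 5 Dcn UMIs, no Rpe65) used limma 3.58.1 on per-library log2 CPM with a prior count of 2. Shares and medians were compared by exact permutation over 20 arrangements. The edgeR test and the limma difference from rod barcodes were tried on simulated counts. There edgeR recovered 31 of 50 genes raised 2-fold, 49 of 50 raised 3-fold and 23 of 50 lowered to 0.5-fold. The limma difference recovered 1, 8 and 0 of 50, so it can miss most changes of these sizes. Doublets were scored against simulated ones in each library and kept, with removal as an alternative. Members, lists and tests were chosen with earlier results of these data known.

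Named genes were 7 markers, Chrm1 to Chrm5, the most abundant 20 genes and, since under 5 genes passed, the 10 of smallest p; list members and Cox8b were named beyond that rule after their values were seen. Mitochondrial genes and the rule's genes stay out of list counts. The alternatives were other normalization, filters, thresholds, depth, doublets and each pool left out.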

Additional observations from a re-analysis of the deposited data

How the results depend on the processing

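The count of genes passing between tropicamide and saline was 0 and moved with the processing. It was 16 with no low-count filter, 1 with at least 1000 UMIs and 500 genes, 3 and 8 with marker thresholds of 2% and 5%, 6 with doublets removed, 1 after thinning to 500 UMIs and 1, Serpine3, without the pigment-rich barcodes, an alternative chosen after seeing the data. With the replicate number as a replicate block it was 9. Same-numbered pools correlated at 0.12, 0.39 and 0.09, and the other pairs at -0.32 to 0.21. With 3 pools per group these values cannot decide whether the numbers pair the samples. Leaving out each pool gave 0 to 11, with 11 without saline pool 2. DESeq2 size factors, the DESeq2 test, Dcn at most 1 and leaving out rod-rich barcodes gave 0. Among 18 alternatives Gpnmb passed in 7, Serpine3 in 9, Ddx5 in 5 and Dct in 4, and the cause was not tested.

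The difference from rod barcodes gave 1 with a prior count of 0.5 and 0 to 6 with a pool left out; the difference from Dcn barcodes gave 0 to 4. The highest values came without saline pool 3. The share kept its direction, with a difference in log2 odds (RPE over other kept barcodes) of 2.08, and 1.74 to 2.47 with a pool left out. With a pool left out, tropicamide minus saline was -185.2 to 121 for median UMIs, -4.08 to 3.67 for genes and -0.24 to 0.086 for the mitochondrial percentage.

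Of 418 alternative values for 24 named genes, 14 changed sign. Tyr was 0.011 with no filter, 0.16 without pigment-rich barcodes and -0.18 to 0.21 with a pool left out. Without pigment-rich barcodes Pmel was 0.054 and Myo7a 0.028. After thinning Mlana was 0.0074, Gpr143 0.29 and Slc16a8 -0.034. Mitf was -0.021 with doublets removed and -0.0022 to 1.47 with a pool left out, Lrat -0.0017 with DESeq2 size factors and -0.073 to 0.075, and Slc16a8 -0.0066 to 0.12. The median over the pigment genes stayed between -0.50 and -0.21. The saline pools, with 63 to 176 members, limit the depth.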
